A study of Bos taurus with 12 samples.

Results

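Bovine embryonic stem cells grown with pyruvate were compared with and without added basic fibroblast growth factor (FGF). The comparison took the 6 of the 12 libraries of the study that its labels name 1/7MC+Pyr+FGF (3 replicates) and 1/7MC+Pyr (3 replicates), as chosen by those labels. All 12 libraries come from Bos taurus and from a single line, F7, labelled WT and embryonic stem cells, so every value describes that line. The study as a whole asked, by its title, how pyruvate and recombinant human basic FGF act on such cells when the feeder layer is sparse. Both groups compared here carry the label element 1/7MC and pyruvate, and they differ by the FGF in their label. What MC stands for, the dose and time of FGF, the species of the feeder cells and whether feeder cells were removed before lysis are not given in the sources used here. Whether the replicates are separate cultures is not stated, and each p-value reflects no more than how far these 6 libraries scatter, which may be technical.

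Basic FGF (FGF2) is a secreted protein that binds FGF receptors at the cell surface together with heparan sulfate chains. The receptors pass the signal through RAS to the kinase ERK, which switches on ETS and immediate early transcription factors and, with them, its own brakes, among them the SPRY and SPRED proteins and the phosphatase DUSP6. Basic FGF is a common supplement of pluripotent stem cell culture, and it also acts on fibroblasts, which serve as feeder cells.

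Each library held 28762910 to 44440972 counts, and 13486 genes were counted well enough to be tested. The stem cell markers were present in every library: POU5F1, the core pluripotency factor, read 1106, 1169 and 1155 CPM (counts scaled to library size) in 1/7MC+Pyr replicates 1 to 3 and 1362, 995 and 1023 CPM in 1/7MC+Pyr+FGF replicates 1 to 3. SOX2 is not analysed here. Fibroblast markers were present as well, with COL1A1, a collagen chain, at 11342, 5626 and 7859 CPM without FGF and 3445, 6375 and 5815 CPM with it. The first principal component held 47.3% of the variance and put all 3 FGF libraries (6.46 to 34.7) on the other side from all 3 libraries without FGF (-34.4 to -3.47). Below, values per library are in replicate order, fold changes are log2 of 1/7MC+Pyr+FGF over 1/7MC+Pyr with their standard error (SE), and rose, fell and passed refer to an adjusted p under 0.05 in edgeR's quasi-likelihood test over all genes tested.

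With FGF, 62 genes rose and 262 fell. Of the 42 tested genes of the interferon response 20 fell, and of 28 TGF-beta genes 6 fell and 1 rose. Of 31 tested genes of sterol and fatty acid synthesis 8 rose, all of them enzymes of the sterol path, and without 1/7MC+Pyr replicate 1 none of them passed. None of the ERK feedback genes DUSP6, SPRY2, SPRY4, ETV4 and ETV5 passed, and neither did any gene of glycolysis or pyruvate entry or the core pluripotency factors POU5F1, NANOG and SALL4. Called genes made up 2.4% of the genes tested, 0.46% rising and 1.94% falling, which is the background against which the counts below are read. DESeq2 called 156 higher (1.16%) and 534 lower (3.96%), and at an unadjusted p under 0.05 edgeR had 815 higher (6.04%) and 1402 lower (10.4%). The CPM of the libraries did not overlap between the groups, with FGF lower, for 1591 genes (11.8%), and with FGF higher for 1311 (9.72%). All called genes were in those sets, and 18 of those that rose and 126 of those that fell changed by at least 1 on the log2 scale.

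The number of calls changed with single libraries. Without 1/7MC+Pyr replicate 1 it was 7 higher and 49 lower, without replicate 2 of that group 59 and 401, and without replicate 3, 16 and 130. Without 1/7MC+Pyr+FGF replicate 1 it was 29 and 150, without replicate 2, 57 and 252, and without replicate 3, 24 and 179. With every one of the 6 libraries left out in turn, 7 of the genes that rose and 47 of those that fell passed each time, and where a gene below lost its call without a library, its largest adjusted p over the 6 omissions is given. Since the samples are bulk RNA of a culture that can hold stem cells and feeder cells, fewer cells of a type and less RNA per cell cannot be told apart.

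**Figure D1:**
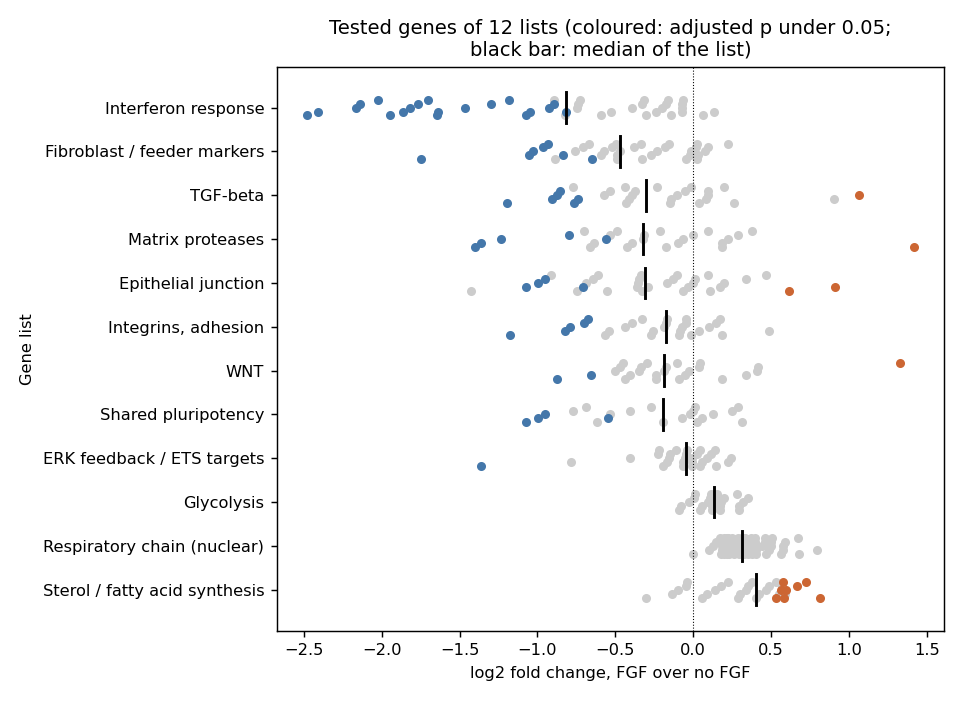
Log2 fold change (horizontal axis, FGF over no FGF) of every tested gene in 12 gene lists (vertical axis), with called genes coloured by direction and the median of each list as a black bar. The interferon list sits farthest to the left, with a median of -0.82, and the sterol and fatty acid list farthest to the right, with a median of 0.40.

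Of the FGF pathway itself, SDC2 and PLAUR passed among 4 lists. Of 9 FGF ligands tested, none passed, of 22 receptors and co-receptors 1 rose, of 25 RAS and MAP kinase relay genes none passed, and of 28 ERK feedback and ETS-target genes 1 fell. The rise was 4.55% of its list against 0.46% of all genes, and the fall 3.57% against 1.94%. The medians of the 4 lists were 0.00, -0.19, 0.01 and -0.04 beside a median of 0.01 over all genes tested. At an unadjusted p under 0.05, edgeR had 0 higher and 2 lower ligands, 3 higher and 8 lower receptors and co-receptors, 0 higher and 1 lower relay genes and 1 higher and 3 lower feedback and target genes. Over all genes the shares higher and lower were 6.04% and 10.4% at that p, and 1.16% and 3.96% by DESeq2. DESeq2 called none of the ligands or relay genes, 2 higher and 1 lower receptors and co-receptors and 2 lower feedback and target genes. Its calls beyond those of edgeR were the heparan sulfate proteoglycan GPC1 (-0.60 ± 0.17, adjusted p 0.0210 in DESeq2 and 0.0939 in edgeR), the FGF receptor partner FLRT3 (0.36 ± 0.11, 0.0361 and 0.117) and SPRED3 (-0.79 ± 0.23, 0.0381 and 0.116). FLRT3 also passed in edgeR with the gene length offset described below (0.0294). Another 11 FGF ligands were counted too rarely to be tested, FGF4 among them with 0 counts in all 6 libraries.

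Among the ligands, FGF2, the cells' own copy of the added factor, read 6.59, 10.1 and 8.39 CPM without and 7.71, 9.75 and 7.81 CPM with FGF. The groups overlapped, and the fold change was 0.00 ± 0.18 (95% interval -0.39 to 0.40). FGF1, another ligand of all FGF receptors, was lower in all 3 FGF libraries (1.01, 1.18 and 0.941 CPM against 0.367, 0.593 and 0.583 CPM), but -1.04 ± 0.34 had an adjusted p of 0.151.

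FGFR1 had the most counts per kilobase of transcript of the 4 FGF receptors, 97.4 CPM per kilobase without and 89.98 with FGF, followed by FGFR2 (20.7 and 18), FGFR3 (12 and 16) and FGFR4 (0.336 and 0.164). FGFR1 itself read 568, 417 and 484 CPM without and 398, 516 and 443 CPM with FGF, with overlapping groups and a fold change of -0.11 ± 0.15. The fold changes of FGFR2 (-0.20 ± 0.13), FGFR3 (0.41 ± 0.15) and FGFR4 (-1.03 ± 0.41) did not pass either. Syndecan-2 (SDC2), a heparan sulfate proteoglycan that can present FGF to its receptors, was the member that rose, from 188, 198 and 195 CPM to 270.2, 252 and 274 CPM. Its libraries did not overlap, but its fold change of 0.46 ± 0.11 lay at the threshold (adjusted p 0.0497) and reached 0.252 with a library left out.

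DUSP6, the phosphatase that ERK induces against itself, read 152, 156 and 158 CPM without and 143, 169.6 and 151 CPM with FGF. The groups overlapped, and the 95% interval of its log2 fold change was -0.25 to 0.24. SPRY4, a feedback inhibitor of receptor signalling, was at 65, 58.8 and 66.3 CPM and 54.5, 102 and 54.6 CPM, where 1/7MC+Pyr+FGF replicate 2 was high and the other 2 FGF libraries were below all 3 libraries without FGF (0.15 ± 0.21). The ETS factors ETV4 (-0.17 ± 0.15) and ETV5 (-0.23 ± 0.15), SPRY2 (-0.15 ± 0.11) and SPRED1 (-0.07 ± 0.13) did not pass. PLAUR, the urokinase receptor, was the member that fell, from 33.2, 18.7 and 24.9 CPM to 10.5, 9.42 and 9.89 CPM (-1.36 ± 0.19, adjusted p 0.00408), and it passed with every library left out. Among 23 immediate early genes 1 fell, the AP-1 subunit JUNB (-0.92 ± 0.18, adjusted p 0.0215, 0.127 without 1/7MC+Pyr replicate 1). That was 4.35% of the list, against 1.94% of all genes. EGR1 read 55, 47.3 and 47.6 CPM and 58.4, 63.6 and 69.1 CPM, higher in all 3 FGF libraries with an adjusted p of 0.174.

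**Figure D2:**
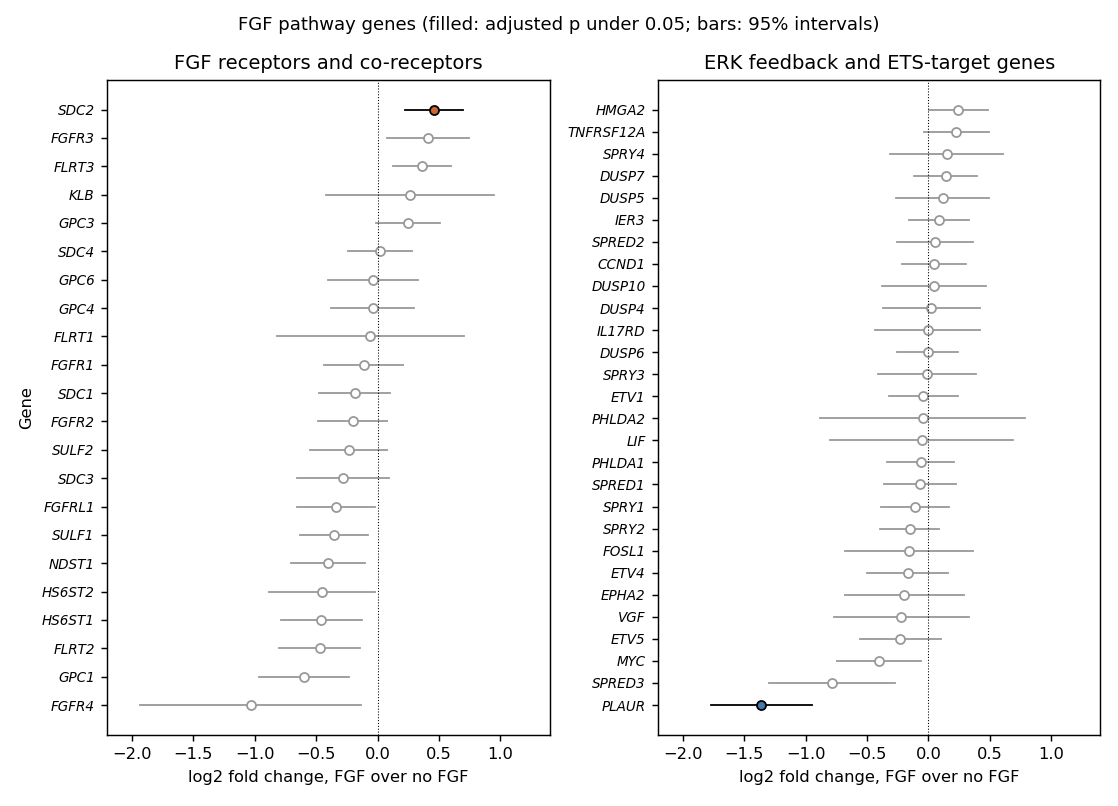
Log2 fold change (horizontal axis, FGF over no FGF) with its 95% interval for FGF receptors and co-receptors (left) and for ERK feedback and ETS-target genes (right). Only SDC2 and PLAUR are filled, that is, below an adjusted p of 0.05, and the interval of DUSP6 runs from -0.25 to 0.24.

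Many interferon-stimulated genes fell with FGF. Such genes are the antiviral effectors and sensors that cells switch on through a transcription factor complex that holds STAT2 and IRF9. Of 42 tested members 20 fell and none rose (47.6% against 1.94% of all genes), and the median was -0.82. In 40 of the 42 the fold change was negative, and in 30 no FGF library reached any library without FGF, as in 11.8% of all genes. DESeq2 called the same number, 20 lower and 0 higher, and edgeR had 27 lower and 0 higher at an unadjusted p under 0.05. Over all genes the shares lower and higher were 3.96% and 1.16% by DESeq2, and 10.4% and 6.04% at that unadjusted p. The summed level of 51 genes on the list was 714, 755 and 718 CPM without FGF and 536, 566 and 573 CPM with it.

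MX1, a GTPase that blocks viral replication, read 12, 10.5 and 10.03 CPM without FGF and 2.16, 1.81 and 3.42 CPM with it. Every FGF library was far below the others, and the fold change was -2.14 ± 0.22 (adjusted p 0.00158). IFI27, a mitochondrial protein that interferon induces, fell from 6.56, 6.26 and 5.89 CPM to 1.03, 0.445 and 1.86 CPM, with 1/7MC+Pyr+FGF replicate 2 the lowest (-2.48 ± 0.35, adjusted p 0.00437). IFI6, which restricts flaviviruses, fell from 9.49, 11.6 and 8.39 CPM to 2.8, 1.93 and 3.36 CPM (-1.87 ± 0.22). The pair OAS1X and OAS1Y belong to the 2'-5' oligoadenylate synthetases, which activate RNA decay, and as close copies their reads can be split wrongly between them. OAS1Y fell from 19.3, 19.9 and 15.7 CPM to 4.47, 2.73 and 6.28 CPM (-2.02 ± 0.24) and OAS1X fell too (-2.17 ± 0.27).

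The ubiquitin-like modifier ISG15 fell from 10.9, 9.92 and 8.88 CPM to 2.91, 1.9 and 4.31 CPM (-1.70 ± 0.25). The protease that removes it, USP18, fell as well (-1.65 ± 0.22), and so did UBA7, its activating enzyme (-1.07 ± 0.20). The RNA sensors RIGI (-0.92 ± 0.14), IFIH1 (-1.76 ± 0.37) and DHX58 (-0.82 ± 0.17) were all lower. RIGI read 18, 17.8 and 16.4 CPM without and 9.25, 8.09 and 10.2 CPM with FGF, so its groups did not overlap. Of the PARP family members on the list, PARP12 fell from 9.02, 8.54 and 8.53 CPM to 2.85, 3.29 and 3.31 CPM (-1.47 ± 0.16), and PARP14 fell as well (-1.05 ± 0.18).

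IRF9, the DNA-binding part of the interferon complex, fell from 14.8, 8.99 and 10.2 CPM to 4.45, 4.36 and 4.97 CPM (-1.30 ± 0.20, adjusted p 0.00641). Its partner STAT2 read 32.3, 44.4 and 39.8 CPM and 31.2, 34.3 and 35.9 CPM and did not pass (-0.20 ± 0.14, adjusted p 0.463). Among 20 interferon receptor and JAK-STAT genes, IFNGR2 (-0.75 ± 0.15) and IFNAR2 (-2.74 ± 0.58) fell, 10% of the list against 1.94% of all genes. IFNGR2, a chain of the interferon gamma receptor, read 28.1, 31 and 28.3 CPM and 16.4, 14.6 and 20.8 CPM. IFNAR2 was near the detection limit at 0.606, 0.507 and 0.348 CPM and 0.115, 0.0296 and 0.0556 CPM, and IFNAR1, its partner chain, did not pass (-0.24 ± 0.12).

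Levels in the study's other groups differed by gene. In 1/7MC libraries, whose label names neither pyruvate nor FGF, OAS1Y stood at 21.4, 22.2 and 25.1 CPM and IFI27 at 6.94, 6.83 and 10.3 CPM, near or above the 1/7MC+Pyr libraries, and MX1 stood at 6.16, 6.12 and 7.46 CPM, between the 2 groups compared. The MC library counted with the same gene models as the rest (replicate 1) read 1.51, 0.701 and 2.02 CPM for these 3 genes. These levels are given without a test, and here and below CPM of these other groups were scaled over 12 libraries instead of 6.

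Without 1/7MC+Pyr replicate 1, 9 of 43 tested interferon genes passed, and with any other library left out 15 to 18 did. MX1, IFI27, IFI6, OAS1X, OAS1Y, USP18, PARP12, RIGI and IRF9 passed with each library left out, whereas ISG15 (0.0586) and PARP14 (0.0588) did not pass without 1/7MC+Pyr replicate 1, nor PARP14 without replicate 3 (largest adjusted p over the omissions in parentheses). The largest adjusted p was 0.114 for UBA7, 0.127 for IFIH1, 0.16 for DHX58, 0.0953 for IFNGR2 and 0.164 for IFNAR2, each of which failed without 1/7MC+Pyr replicate 1. Without that library or replicate 3 of the group, none of the receptor and JAK-STAT genes passed. The summed level of 36 fibroblast and feeder markers was also lower with FGF (32869 to 48681 CPM against 22985 to 31217 CPM), with none at 0, and its part in the fall of the interferon genes was not tested.

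**Figure D3:**
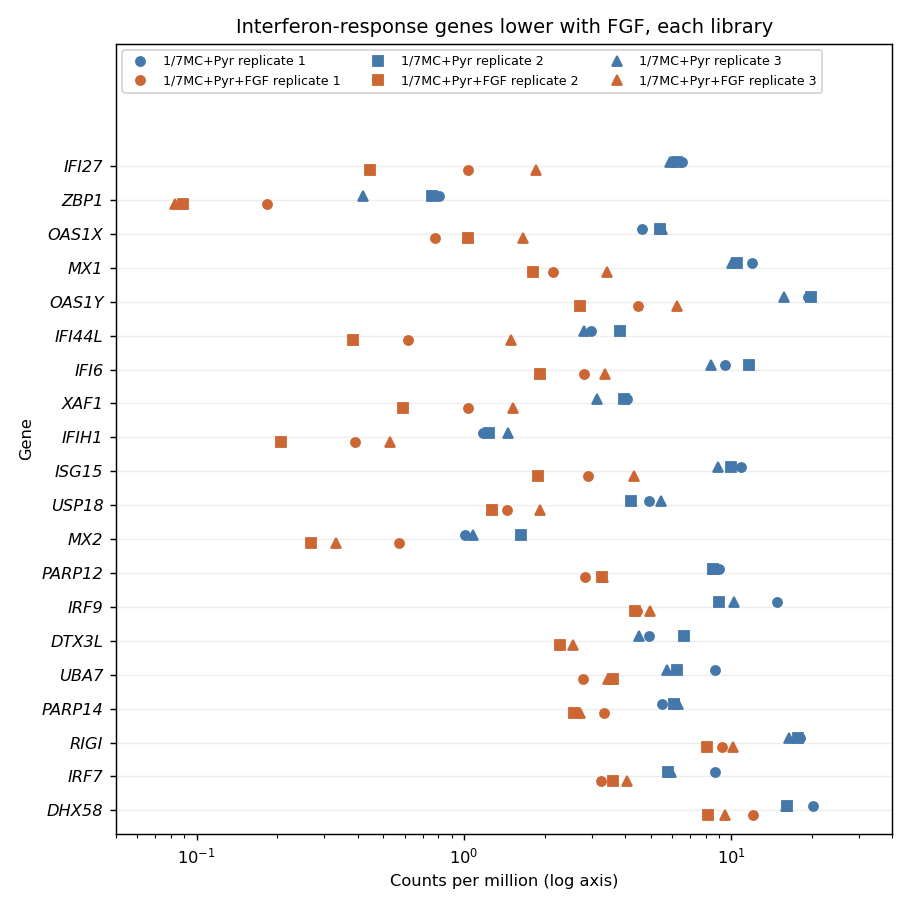
CPM (horizontal log axis) of the 20 interferon-response genes that fell (vertical axis), with 1 symbol per library and colour for the group. In each gene the 3 FGF libraries lie left of all 3 libraries without FGF, as for MX1 with 1.81 to 3.42 CPM against 10.03 to 11.98 CPM.

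Part of the genes of sterol synthesis rose with FGF. These enzymes turn acetyl-CoA through mevalonate and squalene into cholesterol, and many are controlled together by the transcription factor SREBP2. In the list of sterol and fatty acid synthesis, 8 of 31 tested members rose and none fell (25.8% against 0.46% of all genes), with a median of 0.40. Of the 31, 20 were higher in all 3 FGF libraries than in any library without FGF (9.72% of all genes). DESeq2 called 14 higher and 0 lower (1.16% and 3.96% of all genes). At an unadjusted p under 0.05, edgeR had 20 higher and 0 lower (6.04% and 10.4% of all genes).

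HMGCS1, which makes the HMG-CoA of the mevalonate pathway, rose from 686, 911 and 881 CPM to 1598, 1532 and 1234 CPM (0.82 ± 0.15, adjusted p 0.0168). Its lowest FGF library was above the highest library without FGF. ACAT2, the thiolase that acts just before it, rose from 213, 237 and 237 CPM to 388, 391 and 354 CPM (0.73 ± 0.11, adjusted p 0.00828). The mevalonate and isoprenoid enzymes MVD (0.58 ± 0.11), IDI1 (0.53 ± 0.13) and FDPS (0.67 ± 0.14) rose, and so did NSDHL (0.60 ± 0.11), MSMO1 (0.56 ± 0.12) and HSD17B7 (0.58 ± 0.14), which act after lanosterol. FDPS, for example, went from 287, 329.9 and 309 CPM to 591, 460.3 and 418 CPM.

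The epoxidase SQLE (0.49 ± 0.14), the squalene synthase FDFT1 (0.55 ± 0.13) and the sterol sensor INSIG1 (0.59 ± 0.16) were higher in all 3 FGF libraries and did not pass. With a gene length offset in edgeR INSIG1 (adjusted p 0.0234) and FDFT1 (0.0374) passed, and DESeq2 called both and SQLE (0.0240). The regulators SREBF2 (-0.05 ± 0.18) and SREBF1 (-0.31 ± 0.18) and the fatty acid enzymes FASN (-0.09 ± 0.17) and SCD (0.09 ± 0.17) had overlapping groups and did not pass. ACSS2, which makes acetyl-CoA from acetate and was picked after its values were seen, rose from 85.2, 87.5 and 90.5 CPM to 176, 188 and 143 CPM (0.95 ± 0.13, adjusted p 0.00348) and passed with every library left out. In the 1/7MC libraries ACSS2 stood at 50.8, 46 and 52.6 CPM and HMGCS1 at 526, 498 and 546 CPM, both below the 1/7MC+Pyr libraries.

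The 8 calls became 0 without 1/7MC+Pyr replicate 1, 6 without replicate 2 and 1 without replicate 3 of that group, and 3, 5 and 5 without 1/7MC+Pyr+FGF replicates 1, 2 and 3, while the median stayed between 0.34 and 0.48. Largest adjusted p-values ran from 0.0566 for ACAT2 and 0.0997 for NSDHL to 0.24 for IDI1. The sum of fibroblast and feeder markers given above was lower with FGF while sterol genes rose, and its part in their rise was not tested.

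**Figure D4:**
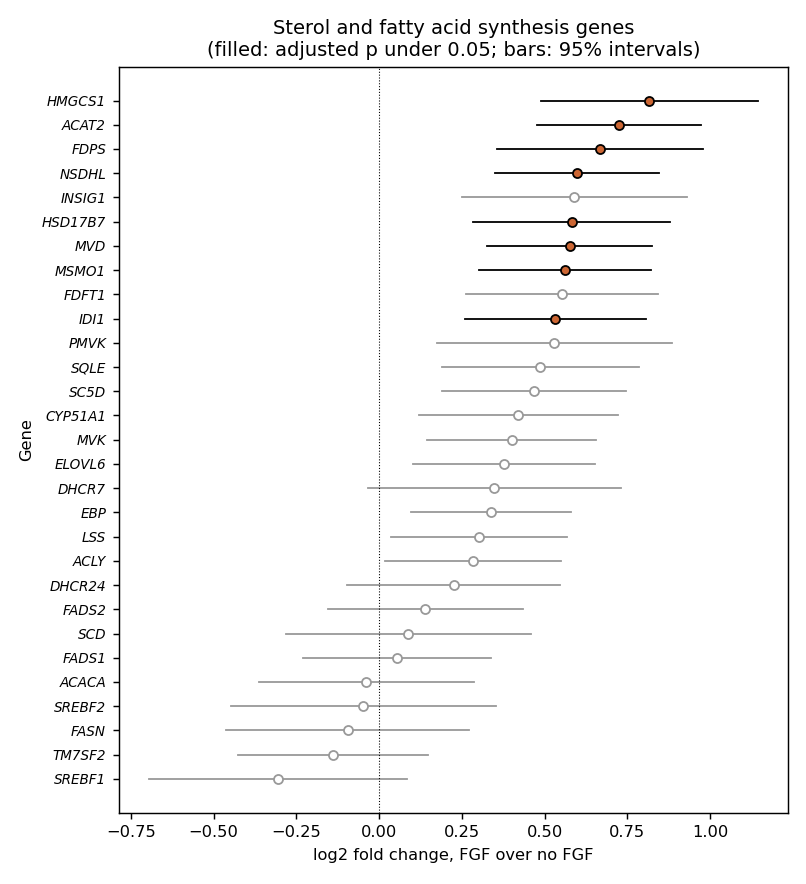
Log2 fold change (horizontal axis, FGF over no FGF) with its 95% interval for 29 of the 31 tested genes of sterol and fatty acid synthesis (vertical axis), filled where the adjusted p was under 0.05. Of the 29, 24 lie to the right of 0, with HMGCS1 highest at 0.82, and the 5 left of it are SREBF1 (-0.31), TM7SF2 (-0.14), FASN (-0.09), SREBF2 (-0.05) and ACACA (-0.04).

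Part of the matrix and TGF-beta genes fell. TGF-beta is a secreted factor that drives fibroblasts to lay down matrix, and collagen VI is a microfibrillar matrix protein built of the chains COL6A1, COL6A2 and COL6A3. Of 35 tested fibroblast and feeder markers 7 fell and none rose (20% against 1.94%), with a median of -0.47. The TGF-beta list had 6 falls and 1 rise among 28 tested members (21.4% and 3.57%, against 1.94% and 0.46% of all genes), with a median of -0.30.

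COL6A3 fell from 295, 164 and 232 CPM to 48.1, 82.9 and 74.7 CPM (-1.75 ± 0.23, adjusted p 0.00315). Every FGF library was below all others, and 1/7MC+Pyr replicate 1 was the highest library. COL6A1 (-1.03 ± 0.21) and COL6A2 (-1.06 ± 0.23) fell too, as did the fibrillin FBN1 (-0.93 ± 0.17), the collagen I chain COL1A2 (-0.83 ± 0.19), periostin POSTN (-0.65 ± 0.12) and the IGF-binding protein IGFBP5 (-0.97 ± 0.20). FBN1 read 421, 317 and 400.00 CPM without and 151, 234 and 210.02 CPM with FGF.

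Several other defining markers of fibroblasts did not pass. LUM, the matrix proteoglycan lumican, read 116, 107 and 116 CPM without and 133, 113 and 97.6 CPM with FGF, and THY1, a surface marker, 22.6, 13.3 and 14.4 and 15.7, 16.2 and 17.6 CPM. Their groups overlapped, as did those of PDGFRB (0.03 ± 0.17), a growth factor receptor of fibroblasts, of VIM (-0.33 ± 0.16) and of COL3A1 (-0.27 ± 0.18).

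Of the TGF-beta ligands, TGFB3 fell from 40.9, 32.4 and 35.6 CPM to 19, 17.5 and 22.9 CPM (-0.88 ± 0.14), and TGFB2 (-0.74 ± 0.15) and TGFB1 (-0.77 ± 0.18) fell as well. The receptor TGFBR2 fell from 47, 36 and 40.1 CPM to 19, 22.7 and 24.1 CPM (-0.91 ± 0.14). Among the targets, PMEPA1, which is induced by TGF-beta and dampens it, fell from 198, 155 and 169.8 CPM to 62.4, 80.7 and 85.1 CPM (-1.19 ± 0.15, adjusted p 0.00202), and the matrix protein TGFBI fell (-0.86 ± 0.16). The inhibitor SMAD7 had overlapping groups (-0.01 ± 0.17). BAMBI, a pseudoreceptor that blocks TGF-beta and BMP receptors, was the member that rose, from 9.05, 11.1 and 9.89 CPM to 19, 16.7 and 27.3 CPM (1.07 ± 0.18, adjusted p 0.0122). In 1/7MC libraries BAMBI stood at 56.8, 58.3 and 67.6 CPM.

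RUNX2, SNAI2, HTRA1 and CDKN2B, which stand in different lists or among the largest falls, fell and passed with every library left out. RUNX2, the factor of bone and cartilage formation, went from 18.1, 12.7 and 11.4 CPM to 3.26, 3.17 and 4.47 CPM (-1.95 ± 0.21, adjusted p 0.00158). SNAI2, a repressor of epithelial genes, went from 19.3, 14.9 and 16.5 CPM to 6.24, 5.93 and 7.94 CPM (-1.33 ± 0.16). HTRA1, a secreted serine protease, went from 137, 94.5 and 106 CPM to 34.7, 35.2 and 45.2 CPM (-1.55 ± 0.16). The cell cycle inhibitor CDKN2B fell likewise (-1.22 ± 0.17), the single call among 44 cell cycle genes (2.27% lower against 1.94% of all genes). Of the 44, 37 had a positive fold change, with a median of 0.16 (0.17 with the gene length offset). Without overlap between the groups, 17 were higher and 2 lower (9.72% and 11.8% of all genes). At an unadjusted p under 0.05, edgeR had 10 higher and 3 lower (6.04% and 10.4% of all genes).

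COL6A3 and PMEPA1 passed with each library left out, and the other 6 markers reached 0.0984 (POSTN) to 0.234 (COL1A2). The 7 marker calls became 1 without 1/7MC+Pyr replicate 1, 13 without replicate 2 and 2 without replicate 3, and 4 and 3 without 1/7MC+Pyr+FGF replicates 1 and 3. The 6 TGF-beta falls became 1 without 1/7MC+Pyr replicate 1, and 4 to 8 with any other library left out. Without that replicate TGFB3 (0.0682), TGFBR2 (0.0586), TGFB2 (0.127), TGFBI (0.0826), TGFB1 (0.212) and BAMBI (0.107) no longer passed, with the largest adjusted p over the omissions in parentheses.

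Some genes of matrix breakdown and adhesion fell as well. Of 26 matrix protease and plasminogen genes 5 fell and 1 rose (19.2% and 3.85%, against 1.94% and 0.46% of all genes). Of 27 integrins and adhesion genes 5 fell and none rose (18.5% lower against 1.94%). The list medians were -0.32 and -0.18, in that order. MMP9, a gelatinase, fell from 53.9, 25.7 and 33.4 CPM to 11.3, 16.9 and 14.6 CPM (-1.40 ± 0.24, adjusted p 0.0122), and MMP11 (-0.80 ± 0.15), ADAM12 (-1.23 ± 0.25) and the inhibitor TIMP2 (-0.56 ± 0.13) fell. MMP3, the stromelysin, moved the other way, from 3.43, 3.47 and 4.7 CPM to 8.83, 14.5 and 7.69 CPM (1.42 ± 0.24, adjusted p 0.0115). The gelatinase MMP2 (-0.49 ± 0.18) and the membrane protease MMP14 (-0.42 ± 0.17) did not pass.

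The integrin chains that fell were ITGA11 (-1.18 ± 0.24), a collagen receptor of fibroblasts, ITGA2 (-0.79 ± 0.16), ITGB3 (-0.70 ± 0.14) and ITGB4 (-0.82 ± 0.15), the laminin receptor chain of hemidesmosomes. ITGB4 read 20.2, 15.3 and 15.2 CPM without and 8.67, 9.63 and 10.4 CPM with FGF. Without 1/7MC+Pyr replicate 1 the 5 protease falls became 1 and the 5 adhesion falls became 0. Without it, and with the largest adjusted p over the omissions in parentheses, MMP9 (0.061), MMP3 (0.111), MMP11 (0.0819), ADAM12 (0.172), TIMP2 (0.169), ITGB4 (0.0953), ITGA11 (0.103), ITGA2 (0.128) and ITGB3 (0.128) no longer passed. Protease falls were 9, 3, 3 and 2 without 1/7MC+Pyr replicates 2 and 3 and 1/7MC+Pyr+FGF replicates 1 and 3, and adhesion falls were 2 without 1/7MC+Pyr replicate 3 or 1/7MC+Pyr+FGF replicate 1 and 1 without 1/7MC+Pyr+FGF replicate 3. As for the matrix genes, the part of the lower fibroblast markers in these falls was not tested.

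Epithelial genes split. Some junction and surface proteins fell while the simple-epithelium keratins KRT8 and KRT18 rose. Among 32 tested junction genes there were 4 falls and 2 rises (12.5% and 6.25%, against 1.94% and 0.46% of all genes), with a median of -0.31. EPCAM, an adhesion protein of epithelial and pluripotent cells, fell from 20.3, 19.9 and 21.4 CPM to 9.98, 10.7 and 8.53 CPM (-1.07 ± 0.13, adjusted p 0.00238). Each FGF library was near the same level and far below the others. CDH1, the E-cadherin of adherens junctions, fell from 249.8, 185 and 222 CPM to 101, 141 and 98.2 CPM (-0.95 ± 0.16), and the splicing factor ESRP1 (-0.99 ± 0.19) and the desmosome protein DSP (-0.71 ± 0.15) fell too. KRT18 rose from 329, 361 and 363 CPM to 786, 577 and 614 CPM (0.91 ± 0.14, adjusted p 0.00693) and its partner KRT8 by 0.62 ± 0.12, while KRT19 did not pass (0.13 ± 0.14).

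EPCAM, CDH1 and ESRP1 also stand in the list of shared pluripotency genes, of which 4 of 21 fell and none rose (19% lower against 1.94% of all genes). The fourth was the de novo DNA methyltransferase DNMT3B, from 1763, 1835 and 1925 CPM to 1188, 1404 and 1190 CPM (-0.55 ± 0.12, adjusted p 0.0452). The core factors did not pass: POU5F1 had -0.02 ± 0.14, NANOG 0.31 ± 0.16, SALL4 -0.07 ± 0.13, LIN28A 0.02 ± 0.13 and PRDM14 0.25 ± 0.11. NANOG read 60.8, 79.6 and 74.3 CPM without and 111, 78.6 and 76.5 CPM with FGF, where 1/7MC+Pyr+FGF replicate 1 alone was above all the rest. Of 19 tested genes of the primed and formative states 2 fell and none rose (10.5% lower against 1.94%), DNMT3B and the WNT effector LEF1 (-0.87 ± 0.17), and with a library left out 0 or 1 fell. DESeq2 called 2 higher and 2 lower on that list, and OTX2 did not pass (0.07 ± 0.12). Of 13 tested naive-state genes none passed in edgeR, and DESeq2 called 1 lower. At an unadjusted p under 0.05, edgeR had 1 of them higher and 2 lower (6.04% and 10.4% of all genes). KLF4 on that list had a fold change of -0.16 ± 0.25.

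EPCAM passed with every library left out. CDH1 did not without 1/7MC+Pyr replicate 1 or 1/7MC+Pyr+FGF replicate 3 (up to 0.0888), KRT18 did not without 1/7MC+Pyr replicate 1 (0.062), and the largest adjusted p was 0.0843 for ESRP1, 0.15 for DSP, 0.152 for KRT8 and 0.242 for DNMT3B. Junction falls became 1 and rises 0 without 1/7MC+Pyr replicate 1, 2 and 1 without its replicate 3, and 3 and 1 or 1 and 1 without 1/7MC+Pyr+FGF replicate 1 or 3. The 4 pluripotency falls became 1 without 1/7MC+Pyr replicate 1 or 1/7MC+Pyr+FGF replicate 3 and 2 without 1/7MC+Pyr replicate 3 or 1/7MC+Pyr+FGF replicate 1.

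Some secreted regulators of WNT and BMP signalling rose and others fell. WNT proteins and their DKK antagonists set the output of beta-catenin, and BMPs act through SMAD factors on MSX and ID genes. DKK1, a WNT antagonist, rose from 3.57, 3.19 and 2.75 CPM to 8.67, 6.43 and 8.78 CPM (1.33 ± 0.19, adjusted p 0.00465) and DKK2 from 2.96, 1.83 and 2.51 CPM to 6.06, 9.45 and 7.81 CPM (1.68 ± 0.23, adjusted p 0.00389). For both genes every FGF library was well above all libraries without it. The 1/7MC libraries were higher still, with 15.6, 19.1 and 18.9 CPM of DKK1 and 13.6, 16.8 and 10.2 CPM of DKK2. The ligand WNT2B, picked after its values were seen, rose from 12.5, 14.9 and 14.8 CPM to 27.8, 26.1 and 35.6 CPM (1.08 ± 0.15), whereas WNT5A (-0.65 ± 0.15) and the beta-catenin partner LEF1 (-0.87 ± 0.17) fell. The WNT list, which holds neither DKK2 nor WNT2B, had 1 rise and 2 falls among 25 tested genes. These were 4% and 8%, against 0.46% and 1.94% of all genes. Of the 25, 18 had a negative fold change (median -0.19).

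Of 26 BMP and ID genes, BMP4 (0.58 ± 0.13) and its target MSX2 (0.95 ± 0.17) rose and BMP2 fell (-1.21 ± 0.28). That was 7.69% higher and 3.85% lower, against 0.46% and 1.94% of all genes. BMP4 went from 86.3, 77.8 and 70.2 CPM to 116, 103 and 132 CPM. ID1, a direct BMP target, did not pass in edgeR (0.60 ± 0.16, adjusted p 0.0857) and did in DESeq2 (0.0166). Mesoderm genes moved both ways, 3 of 16 up and 3 down (18.8% each, against 0.46% and 1.94% of all genes). TBX2 (1.32 ± 0.30) and TWIST1 (0.68 ± 0.15) rose beside BMP4, and MEOX1 (-1.40 ± 0.23), EOMES (-1.11 ± 0.25) and SNAI2 fell. TBX2 stood at 0.875, 0.789 and 0.941 CPM without and 2.09, 1.51 and 2.89 CPM with FGF, and at 13.5, 14.7 and 14 CPM in the 1/7MC libraries.

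DKK1, DKK2 and WNT2B passed with every library left out. The largest adjusted p was 0.191 for WNT5A, 0.143 for LEF1, 0.214 for BMP4, 0.0777 for MSX2, 0.202 for BMP2, 0.191 for TBX2, 0.143 for TWIST1, 0.164 for EOMES and 0.0502 for MEOX1, and without 1/7MC+Pyr replicate 1 none of them passed except MEOX1, which failed without replicate 3.

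Several of the genes with the largest changes belong to no common list. Among the 12 genes with the largest rise, ALDH1A2, which makes retinoic acid, rose from 1.88, 2.4 and 1.78 CPM to 5.46, 6.34 and 6.0 CPM (1.55 ± 0.19, adjusted p 0.00238) and passed with each library left out. FOXL2, the ovarian transcription factor, rose from 1.31, 1.52 and 0.906 CPM to 2.43, 4.74 and 3.81 CPM (1.53 ± 0.30), and the calmodulin regulator PCP4 by 1.47 ± 0.29. The keratin KRT6A (1.80 ± 0.43), the glycosyltransferase MGAT4C (1.33 ± 0.31), the adhesion molecule NCAM2 (1.32 ± 0.28) and LY6G6C (1.26 ± 0.28) also rose from low levels, KRT6A from 0.437, 0.282 and 0.174 CPM to 0.803, 1.45 and 0.917 CPM. Of these, FOXL2, PCP4 and NCAM2 lost their calls in 3 to 5 omissions (up to 0.127, 0.148 and 0.168), and KRT6A (0.19), MGAT4C (0.198) and LY6G6C (0.124) in all 6.

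Among the 12 genes with the largest fall that are not interferon genes, SPHK1, the kinase that makes sphingosine 1-phosphate, fell from 21.8, 11 and 12.4 CPM to 4.06, 3.32 and 5.64 CPM (-1.79 ± 0.27, adjusted p 0.00603) and passed with each library left out. LHX1, a homeodomain factor of early mesendoderm, fell from 1.55, 1.13 and 2.06 CPM to 0.413, 0.445 and 0.333 CPM (-1.97 ± 0.35). The matrix proteoglycan PODNL1 (-2.16 ± 0.44) and the zinc transporter SLC39A12 (-1.95 ± 0.39) fell as well. LHX1 (0.0839), PODNL1 (0.172) and SLC39A12 (0.163) each lost the call in 3 of the 6 omissions, that of 1/7MC+Pyr replicate 1 included.

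Energy metabolism showed no called change. Pyruvate enters mitochondria through the carrier MPC1-MPC2 and is oxidised in the tricarboxylic acid cycle, which feeds the respiratory chain. Of 24 glycolysis genes, 25 genes of pyruvate entry and disposal, 21 tricarboxylic acid cycle genes, 72 nuclear genes of the respiratory chain and 13 mitochondrially encoded genes, none passed in edgeR. At an unadjusted p under 0.05 edgeR had 3, 4, 3, 13 and 0 of them higher and 0, 1, 0, 0 and 0 lower. Over all genes those shares were 6.04% and 10.4%. DESeq2 called 1 respiratory chain gene higher and no other member. Fold changes were above 0 in 21 of 24 glycolysis, 17 of 25 pyruvate, 20 of 21 cycle and 6 of 13 mitochondrially encoded genes. Their medians were 0.13, 0.12, 0.19 and -0.07, and with the gene length offset 0.11, 0.12, 0.13 and -0.15. LDHA, which turns pyruvate into lactate, read 83.9, 109.9 and 99 CPM without and 119, 86.7 and 124 CPM with FGF (0.17 ± 0.15), with overlapping groups. The glucose transporters SLC2A1 (0.11 ± 0.16) and SLC2A3 (0.15 ± 0.12), HK2 (-0.09 ± 0.14), PKM (0.12 ± 0.12), the pyruvate dehydrogenase kinase PDK1 (0.19 ± 0.15), MPC1 (0.37 ± 0.14) and MPC2 (0.37 ± 0.18) did not pass.

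The nuclear respiratory chain genes had a median of 0.31, with 71 of 72 above 0, and they are short, with a median length of 698 bases. Fold changes followed gene length across all genes: of 10 groups of about equal size, the shortest (53 to 1153 bases) had a median of 0.17 and the longest (6844 to 27148 bases) of -0.17, with a Spearman rho of -0.33 across 13486 genes, which are not independent replicates. In single libraries the rho of the deviation from the mean of the 6 with length was 0.205, 0.05 and 0.366 without FGF and -0.464, 0.3 and -0.283 with it, so 1/7MC+Pyr+FGF replicate 2 went against its group. With an offset that removes the trend in each library the respiratory chain median was 0.14, and without 1/7MC+Pyr+FGF replicate 1 it was 0.10. Under the offset, the medians of 4 other lists were -0.79 for interferon genes (19 of 42 lower), 0.39 for sterol and fatty acid genes (10 of 31 higher), -0.44 for fibroblast markers (9 of 35 lower) and -0.28 for TGF-beta genes (6 lower, 1 higher). Of the 62 genes that rose, 52 also passed with the offset, and of the 262 that fell, 242. Of the called genes named here, IDI1 (0.0512), KRT6A (0.0520), MGAT4C (0.0549), WNT5A (0.0619), TWIST1 (0.0747) and LY6G6C (0.0789) did not pass with the offset, by the adjusted p in parentheses.

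**Figure D5:**
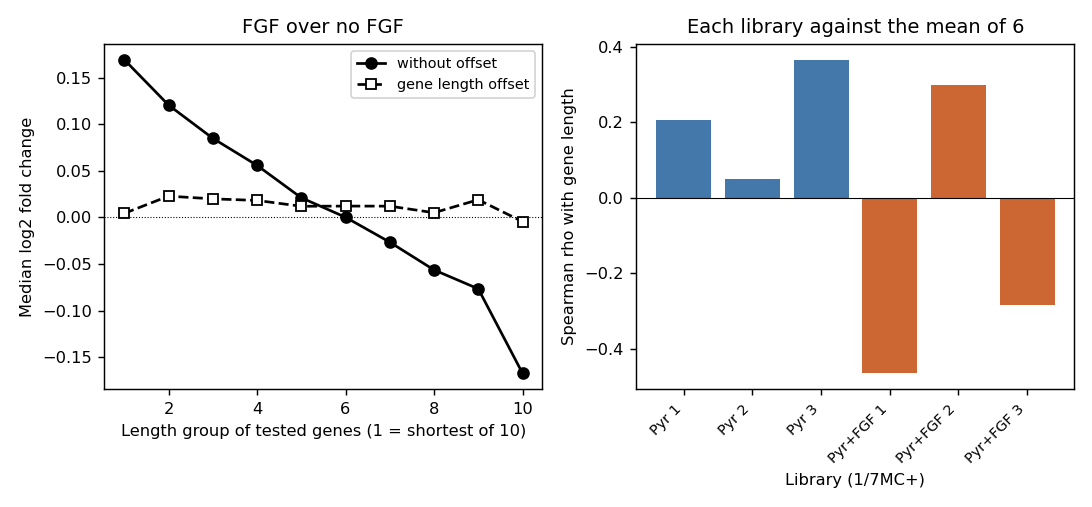
Left, median log2 fold change (vertical axis) of each of 10 groups of tested genes by length (horizontal axis), without and with the gene length offset. Right, Spearman rho with gene length (vertical axis) of each library's deviation from the mean of the 6 libraries (horizontal axis). The median falls from 0.17 in the shortest genes to -0.17 in the longest without the offset, and 1/7MC+Pyr+FGF replicate 2 (0.3) has the opposite sign to the other FGF libraries.

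Markers of other cell types were called in both directions. Of 17 tested endothelial and blood markers 3 rose and 1 fell (17.6% and 5.88%, against 0.46% and 1.94% of all genes), and with a library left out 0 or 1 rose and 0 or 1 fell. LCP1, an actin-bundling protein of leukocytes, rose from 1.75, 2.17 and 2.19 CPM to 5.92, 6.19 and 3.5 CPM (1.35 ± 0.25), and the angiopoietin receptor TEK (0.65 ± 0.15) and the blood factor TAL1 (0.60 ± 0.14) rose while RUNX1 fell from 17.1, 15.4 and 15.8 CPM to 3.63, 7.08 and 7.17 CPM (-1.44 ± 0.22). The defining markers PECAM1, PTPRC, SPI1 and GATA1 were too low to test and HBB had 0 counts in all 6 libraries, and the list summed to 86.2 to 95.3 CPM without FGF and 86.8 to 124 CPM with it. Of 13 tested endoderm genes 1 rose (7.69%) and none fell. APOA1, an apolipoprotein, rose from 319.6, 288 and 299 CPM to 545, 499.9 and 486 CPM (0.76 ± 0.11, adjusted p 0.00689), while SOX17, FOXA2 and GATA4 were too low to test and FOXA1 and AFP had 0 counts. Of 14 tested trophectoderm genes KRT8 and KRT18 rose and EOMES fell (14.3% and 7.14%), with 0 to 2 rises and 0 or 1 fall when a library was left out, while CDX2 and ELF5 were too low to test. None of 15 neural ectoderm genes passed in edgeR, and DESeq2 called 0. At an unadjusted p under 0.05, edgeR had 2 of them higher and 1 lower (6.04% and 10.4% of all genes).

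APOA1 passed with every library left out. LCP1 (0.122) and RUNX1 (0.0685) did not pass without 1/7MC+Pyr replicate 1, and TEK and TAL1 in none of the 6 omissions (up to 0.185 and 0.186).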

How the data were processed

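RNA of 6 libraries was analysed. The libraries were poly-A selected and built with NEBNext Ultra reagents, per the labels' protocols. These name no strand-marking step, so reads of genes that overlap, lie antisense or are close copies may be misassigned. The submitters' processing notes list HISAT2 2.1.0, fastp 0.19.7, featureCounts and Subread 2.0 with the build bosTau9. Tool settings and the annotation are not given in the sources used here. The authors deposited whole-number counts per gene without normalisation, which were used as deposited, and a second table that was not used.

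Of 19285 entries, 400 that shared an Ensembl or Entrez identifier with another were left out (1.09% to 1.19% of the counts of a library). Symbols came from a gene table of another assembly, ARS-UCD2.0, by Entrez identifier (19195 matched), so no coordinates are given. Counts were tested with edgeR 4.0.16 (R 4.3.3, limma 3.58.1; TMM factors 0.9883 to 1.012, filterByExpr, quasi-likelihood F test, Benjamini-Hochberg adjustment over 13486 genes, threshold 0.05). The SE was derived from the fold change and its F statistic, and intervals cover 95%. CPM were computed here from the deposited counts. Alternatives were DESeq2 1.42.0, other filters, scalings and sample sets, each library left out, a replicate block, and a gene length offset (loess, span 0.5, of each library's log2 CPM deviation, prior count 2). The fitting code was tested on simulated data. Figures used Python 3.11.15 and matplotlib 3.10.9.

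The groups, the 36 gene lists and the named-gene rule were chosen with earlier results of these data known. The rule names the 12 largest rises and 12 largest falls among called genes without overlap and with a mean of at least 1 CPM in the higher group, up to 6 called members of each list by adjusted p, and fixed FGF, pluripotency and metabolism genes. Other genes are described as members of the lists or said to be picked after their values were seen. Since 2 of the MC libraries (replicates 2 and 3) show signs of other gene models, MC levels are those of replicate 1. A few list members count in the totals and are not reported here by name.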

Additional observations from a re-analysis of the deposited data

How the results depend on the processing

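The 62 rises and 262 falls were refitted under 17 alternatives. DESeq2 gave 156 and 534. With 9 libraries in the fit the rises were 99. Leaving out 1 library gave 7 to 59 rises and 49 to 401 falls, fewest without 1/7MC+Pyr replicate 1. Another scaling, other filters, 12 libraries in the fit, shared identifiers kept and the gene length offset moved neither count by over 1.5 times. The offset without 1/7MC+Pyr+FGF replicate 1, chosen after seeing the data, left 29 and 99. Over the 155 named genes and these alternatives, no called direction turned, 396 calls were lost and 9 gained. The cause was not tested.

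A replicate block left 2 rises and 38 falls, and the block with the length offset 9 and 67. Same-numbered libraries deviated in opposite directions (correlations -0.35, -0.366 and -0.0772), and no library correlated best with its own number. The labels do not state whether a number marks a shared culture or batch. These correlations cannot decide it, since single libraries also deviated with gene length, so the counts with the block stand beside those without it.

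With 3 libraries a group, genes under about 1 CPM, such as IFNAR2 and ZBP1, rest on few counts. The search of promoters for interferon motifs was not run, since no sequence was used here.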

Other observations

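Outside the gene lists, several genes of matrix and inflammation fell and passed in edgeR with each of the 6 libraries left out. They were picked after their values were seen, and they are given as values only. CRISPLD2, a secreted glycoprotein, read 98.9, 64.4 and 81.3 CPM in 1/7MC+Pyr and 24.4, 26.6 and 28.6 CPM in 1/7MC+Pyr+FGF (-1.62 ± 0.16, adjusted p 0.00158). FMOD, the collagen-binding proteoglycan fibromodulin, read 37.6, 22.3 and 28.1 CPM and 8.7, 8.0 and 10.03 CPM (-1.72 ± 0.19). The matrix protein SPON2 fell by a like size (-1.56 ± 0.18). NFKBIZ, a nuclear regulator of NF-kappa-B targets, read 10.8, 8.6 and 11.3 CPM and 2.57, 3.05 and 3.69 CPM (-1.72 ± 0.19). BHLHE40, a transcriptional repressor, fell from 51.5, 43.3 and 48.6 CPM to 18.4, 20.5 and 24.6 CPM (-1.18 ± 0.14), and so did LDLRAD4, an inhibitor of TGF-beta signalling (-1.24 ± 0.14). In each of these genes the 3 FGF libraries lay below all 3 others. The fibroblast and feeder markers were also lower with FGF in sum, and their part in these falls was not tested.

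On the other side, PRPH, the neuronal intermediate filament peripherin, was also picked after its values were seen. It rose from 107, 98.3 and 114 CPM to 197, 211 and 181 CPM (0.88 ± 0.12, adjusted p 0.00348) and passed with every library left out. Among 32 tested genes of serine and one-carbon metabolism and the ATF4 response, PSAT1, an enzyme of serine synthesis, rose from 18.3, 24.5 and 19.7 CPM to 41, 34 and 39.3 CPM (0.87 ± 0.14, adjusted p 0.00978), and it did not pass without 1/7MC+Pyr replicate 1 (0.069). It was the single call on that list (3.12% higher against 0.46% of all genes), and DESeq2 called 3 higher and 1 lower. Without overlap between the groups, 14 were higher and 3 lower (9.72% and 11.8% of all genes). At an unadjusted p under 0.05, edgeR had 7 of the 32 higher and 2 lower. Of 20 heat shock, 24 NRF2 and 28 p53 and apoptosis genes none passed in edgeR, and DESeq2 called 0, 0 and 2 higher. At an unadjusted p under 0.05 edgeR had 4, 3 and 6 higher and none lower, against 6.04% and 10.4% of all genes.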
